A study of Mus musculus with 90 samples.

Results

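The 8 genes described here, Igfbp7, Rgs8, Csf1, Scin, Plxdc2, Metrnl, Glipr1 and Ttc39c, were 8 of the 23420 genes counted in 90 mouse T cell libraries. They were chosen by their levels in CD8 T cells of the mice labelled yfp, which went up along populations sorted from the tumour by the inhibitory receptors PD-1 and TIM-3, so the levels in those yfp libraries are given as a description, with no test. The tests below compare libraries of the other genotypes and of regulatory T cells (Tregs), whose levels were not used in this choice. Earlier results of these data were known when the genes were chosen, so tests on the libraries without yfp are not fully independent of the choice. In those libraries the collective description, genes marking cells high for PD-1 and positive for TIM-3, held for the levels of some of the genes. In the 9 matched pairs of libraries without yfp, Glipr1 and Rgs8 were higher in those cells than in PD-1 high cells without TIM-3 in 9 of 9, and Csf1 in 8. Only Glipr1 passed the test of that step, in the genotypes labelled DKO and Ebi3L, where 3.77% and 1.24% of all genes rose. Igfbp7 was split (4 of 9), and Scin and Plxdc2 were higher in the cells without TIM-3 in 8 of 9 pairs each. Ttc39c was higher at intermediate PD-1 than in PD-1 negative cells in 9 of 9 pairs, and Metrnl was higher in tumour cells without either receptor than in lymph node cells in 8 of 9. How often other genes were ordered this way in the pairs was not counted, so the pair counts are a description.

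The study sorted T cells of mice whose Tregs lack the suppressive cytokines IL-10, IL-35 or both, and T cells of reporter mice for these cytokines, and sequenced their RNA. In the CD8 libraries 4 tumour populations were separated: PD-1 negative TIM-3 negative (NEG), PD-1 intermediate TIM-3 negative (INT), PD-1 high TIM-3 negative (SP, for single positive) and PD-1 high TIM-3 positive (DP, for double positive), and CD8 cells of the non-draining lymph node (NDLN) were sorted alongside. The mouse genotypes are labelled yfp (3 libraries per population), DKO, the double knockout (4), Il10 (2) and Ebi3L (3), Ebi3 being a subunit of IL-35, which gives 20 groups and 60 libraries. The second series, from mice labelled WT, holds 10 groups of 3 libraries: Tregs labelled DoubleNeg (DN), IL10 or Ebi3 for the cytokine they express, from tumour (TIL), non-draining lymph node (ndLN) and naive mice, and effector T cells (Teff) of naive mice. The labels give no strain, age, sex, tumour type or driver of the deletions. They also do not name the animal behind a library, and the p-values below therefore reflect library-to-library spread, part of which may be technical. CD8 libraries carry a set number; libraries of the same genotype and set are called matched below, by that number alone, since the labels do not say that a set is an animal.

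PD-1, encoded by Pdcd1, and TIM-3, encoded by Havcr2, are receptors that dampen T cell activation. T cells exposed to antigen for long periods, as in tumours, gain such receptors stepwise and lose the genes of naive and stem-like cells; cells that carry both receptors at high levels are commonly described as terminally exhausted. Of the 8 genes, 3 encode secreted proteins (Igfbp7, a protein related to the insulin-like growth factor binding proteins; Csf1, the growth factor of macrophages; Metrnl, a meteorin-like cytokine). Rgs8 shortens G protein signalling, Scin (scinderin, or adseverin) severs and caps actin filaments in a calcium-dependent way, and Plxdc2 is a transmembrane protein. Glipr1 belongs to the CAP protein family, and Ttc39c carries tetratricopeptide repeats.

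Upstream sequences are shown for genes that were at or near 0 in lymph node cells and higher in the tumour, although the step at which each went up differed: Metrnl was high in NEG already, Csf1 was measurable in INT, and Igfbp7, Rgs8 and Scin went up mainly at SP. RefSeq start sites (GRCm38.p6) were found for 5 of the 8 genes, Igfbp7, Rgs8, Csf1, Scin and Metrnl, with 3 separate starts for Rgs8. Each run is the 250 bases before a start, on the strand of the gene, and capitals mark a match, on either strand, to one of 6 short motifs: TGANTCA (AP-1), AAAGGTCA (the NBRE element of NR4A factors), TGNGGT (RUNX), TGGAAA (NFAT), CAGCTG (the E-box of E proteins) and GAAAGT (IRF factors and BLIMP-1). The windows are chr5:77408046-77408295 (minus strand) for Igfbp7, chr1:153652787-153653036 (plus) for the first start of Rgs8, chr3:107760470-107760719 (minus) for Csf1, chr12:40134229-40134478 (minus) for Scin and chr11:121702177-121702426 (plus) for Metrnl.
Igfbp7: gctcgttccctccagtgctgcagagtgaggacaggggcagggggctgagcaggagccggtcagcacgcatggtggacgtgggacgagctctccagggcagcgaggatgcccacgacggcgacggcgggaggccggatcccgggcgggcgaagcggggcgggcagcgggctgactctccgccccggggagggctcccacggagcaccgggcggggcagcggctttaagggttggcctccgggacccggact
Rgs8: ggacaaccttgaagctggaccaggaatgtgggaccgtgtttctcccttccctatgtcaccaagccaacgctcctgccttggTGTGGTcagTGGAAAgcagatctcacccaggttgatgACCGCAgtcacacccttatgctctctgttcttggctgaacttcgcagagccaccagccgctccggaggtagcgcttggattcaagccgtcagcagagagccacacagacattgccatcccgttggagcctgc
Csf1: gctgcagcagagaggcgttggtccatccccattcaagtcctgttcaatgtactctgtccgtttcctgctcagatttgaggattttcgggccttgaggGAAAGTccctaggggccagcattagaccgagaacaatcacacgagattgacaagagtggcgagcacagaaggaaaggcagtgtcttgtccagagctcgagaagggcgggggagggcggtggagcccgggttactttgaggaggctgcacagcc
Scin: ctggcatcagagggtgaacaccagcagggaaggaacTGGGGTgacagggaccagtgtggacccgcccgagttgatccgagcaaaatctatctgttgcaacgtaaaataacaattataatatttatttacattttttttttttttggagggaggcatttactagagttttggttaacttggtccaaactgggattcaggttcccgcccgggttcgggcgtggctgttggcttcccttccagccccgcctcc
Metrnl: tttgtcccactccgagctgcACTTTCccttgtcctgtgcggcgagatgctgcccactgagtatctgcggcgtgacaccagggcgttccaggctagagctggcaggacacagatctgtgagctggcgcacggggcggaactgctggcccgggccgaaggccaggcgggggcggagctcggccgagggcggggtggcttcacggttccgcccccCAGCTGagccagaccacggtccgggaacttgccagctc
Igfbp7 has no match to any of the 6 motifs in a window of 74% GC with 26 CpG dinucleotides, against a median of 52.4% GC over the 32851 upstream windows in the table. The Rgs8 window holds 2 RUNX matches and 1 NFAT match, the Scin window 1 RUNX match, the Csf1 window 1 GAAAGT and the Metrnl window 1 CAGCTG and 1 GAAAGT read on the other strand. The other Rgs8 starts, with windows chr1:153665024-153665273 and chr1:153665423-153665672, hold 1 RUNX and 1 E-box match. The RUNX letters occur in 40.1% of all windows, TGGAAA in 18.6%, CAGCTG in 13%, GAAAGT in 12.3%, TGANTCA in 6.75% and AAAGGTCA in 1.34%, so the matches are a description of these letters only.

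The CD8 libraries held 19.2 to 47.7 M counts (median 26.2 M) and those of the Treg series 9.73 to 20.2 M (median 15.1 M). Levels below are CPM, the count divided by the library total in M, and 3 counts, the floor used where a group is at 0, equal 0.0629 to 0.308 CPM. The sort receptors followed the labels: Pdcd1 was at 1.24 to 85.9 CPM in the 12 NEG libraries and 652 to 1742 CPM in the 12 DP libraries, and Havcr2 at 5.74 to 82.2 CPM in SP and 184 to 473 CPM in DP. Cd8a lay between 694 and 1502 CPM in every CD8 library, and Foxp3 between 29.1 and 157 CPM in the Tregs. Over 11240 genes, 50 of the 60 CD8 libraries were most correlated with the mean of their own population. The exceptions were 6 of the 12 INT libraries, of which 4 (DKO replicate 2, Ebi3L replicates 2 and 3, yfp replicate 3) were nearer to SP and 2 (DKO replicate 3, Ebi3L replicate 1) nearer to NEG, besides 1 NEG library nearer to NDLN (yfp replicate 2), 1 SP library nearer to INT (DKO replicate 3) and 2 SP libraries nearer to DP (Il10 replicate 1, yfp replicate 3). In bulk samples, fewer cells of a type and less RNA per cell cannot be told apart, which holds for every level below. Medians and ranges over the 12 libraries of a population include the yfp libraries, which took part in the choice of the genes, so they are a description.

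Markers of other cells also moved between NEG and DP, and their part in the results was not tested. The summed level of 10 proliferation genes was 84.0 to 1727 CPM in NEG and 1647 to 4939 CPM in DP. The summed CD4 T cell and Treg markers (4 genes) went from 3.05 to 79.1 CPM in NEG to 157 to 677 CPM in DP, carried by Il2ra and Ctla4, while in DP libraries Cd4 was at most 3.41 CPM and Foxp3 at most 1.63 CPM. NK cell markers (5 genes) went from 95.9 to 613 CPM to 388 to 985 CPM, with Ncr1 at 0 in all 12 DP libraries. Klrk1 led this sum, with a median of 152 CPM in NEG and 542 CPM in DP. In DKO, edgeR called 1 of 4 tested NK genes higher in DP and 2 lower (21.4% and 20% of all genes). In Ebi3L it called 0 of 4 higher and 1 lower (17.6% and 15.7%). Dendritic cell markers (5 genes) went from 5.65 to 58.6 CPM to 25.4 to 103 CPM, with Clec9a at 0 in all 12 DP libraries. Myeloid markers (12 genes) summed to 19.8 to 90.2 CPM in NEG and 15.8 to 115 CPM in DP, and stromal and endothelial markers (12 genes) to 22.8 to 128 CPM and 4.67 to 34.3 CPM. The stromal and endothelial sum was nearly all Pecam1, the other 11 genes summing to at most 8.59 CPM in NEG and 5.35 CPM in DP. B cell markers (5 genes) went from 20.2 to 65.3 CPM in NEG to 0 to 22.3 CPM in DP, nearly all Cd79b, with Pax5 at 0 in all libraries of both. Pigment cell markers (7 genes) went from 4.38 to 33.1 CPM to 1.40 to 9.69 CPM, in NEG mostly Pmel, with Sox10 at 0 in both. Erythroid and platelet markers (5 genes) summed to at most 2.49 CPM in DP and at most 17.6 CPM in 11 NEG libraries, while the NEG library of Ebi3L replicate 2 held 806.5 CPM, nearly all from a beta globin gene. Without Ebi3L replicate 2, 5 of the 7 calls from NEG to DP in Ebi3L described next remained, and those of Igfbp7 and Scin did not.

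Across tumour populations, the question of the design is how CD8 cells differ as they gain PD-1 and TIM-3. In the DKO mice 7 of the 8 genes rose from NEG to DP, all but Metrnl, where 21.4% of the 12672 genes tested rose at an adjusted p under 0.05 (edgeR's quasi-likelihood test with Benjamini-Hochberg adjustment). The 7 genes other than Metrnl rose in the Ebi3L mice too, where 17.6% of 12822 genes rose. In the Il10 mice, with 2 libraries a group, 2 of the 8 genes rose, Igfbp7 and Glipr1, where 5.13% of 12708 genes rose. The median log2 fold change of the 8 genes was 5.10 in DKO and 6.97 in Ebi3L, against -0.01 and 0.00 over all genes tested. All 8 genes passed the filter on low counts in each of these fits.

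The single steps called fewer of the genes. From NDLN to NEG, 2 of 8 rose in DKO (4.16% of all genes rose) and 1 in Ebi3L (1.22%). From NEG to INT none passed in DKO (0.0395% of genes called in either direction; 3 of the 8 and 11.2% of all genes had an unadjusted p under 0.05, and DESeq2 called 2 of the 8), and 2 rose in Ebi3L (1.22%). From INT to SP 2 rose in DKO (1.01% of all genes) and 1 in Ebi3L (1.81%). From SP to DP 1 gene, Glipr1, rose in DKO (3.77%) and in Ebi3L (1.24%). In Il10 no step was called for any of the 8 genes by edgeR, where 0.299%, 0.063%, 0% and 0.0393% of all genes were called in the same order of steps. An unadjusted p under 0.05 was found for 1, 4, 1 and 1 of the 8 and for 8.4%, 7.34%, 11.4% and 3.78% of all genes, and DESeq2 called 1, 1, 0 and 1 of the 8. The percentages of these steps are edgeR's. The share of all genes called by DESeq2 is not given, so its counts cannot be set against them.

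**Figure D1:**
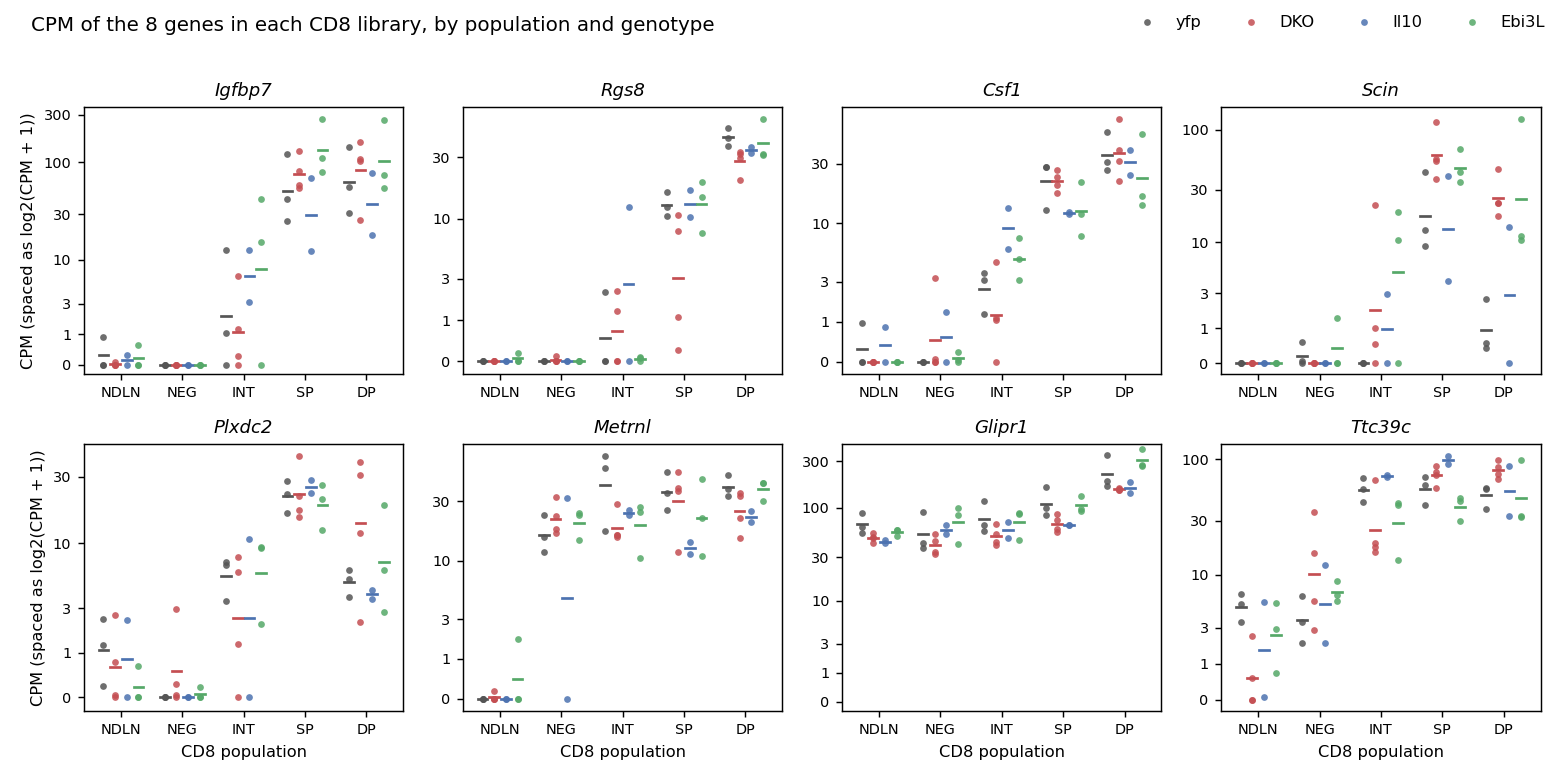
Level of each of the 8 genes in all 60 CD8 libraries, by population (NDLN, NEG, INT, SP, DP; x axis) and genotype (colour); the y axis is CPM, spaced as log2(CPM + 1), points are libraries and short lines are group means on that scale. Igfbp7 is at 0 in all 12 NEG libraries and at 12.3 to 269 CPM in SP, Glipr1 is highest in DP (141 to 401 CPM), and Metrnl is raised from NEG on. The yfp points took part in the choice of the genes.

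Among the secreted factors, Igfbp7 (chr5:77349240-77408041, minus strand, GRCm38) was at 0 in all 12 NEG libraries, had a median of 2.22 CPM in INT (range 0 to 42.5), of 75.2 CPM in SP (12.3 to 269) and of 76.5 CPM in DP (18.1 to 265). In the 9 libraries of each population without yfp, it was at 0 in all of NEG, at 12.3 to 269 CPM in SP and at 18.1 to 265 CPM in DP. In DKO the INT libraries held 0.214, 6.53, 0 and 1.24 CPM and the SP libraries 81.5, 129, 54.7 and 58.9 CPM, without overlap. That step was a rise of 5.92 ± 0.93 (log2 ± SE, adjusted p = 0.00622), and it missed the threshold without DKO replicate 1 (adjusted p = 0.19) or replicate 4 (0.0609). In DP the 4 DKO libraries held 103, 109, 162 and 25.9 CPM, at least 747-fold above the NEG libraries (adjusted p = 1.13e-05). The Ebi3L DP libraries held 55.5, 74.1 and 265 CPM, at least 1206-fold above NEG (adjusted p = 0.00696, but 0.0934 without Ebi3L replicate 2 and 0.107 without replicate 3). In Il10 the 2 DP libraries held 78.8 and 18.1 CPM, at least 396-fold above NEG (adjusted p = 0.0206). From SP to DP the difference was 0.51 ± 0.72 in DKO and -0.18 ± 1.29 in Ebi3L, with overlapping ranges. The INT libraries above 5 CPM were yfp replicate 3 (12.6), DKO replicate 2 (6.53), Il10 replicate 2 (12.8) and Ebi3L replicates 2 and 3 (15.3 and 42.5), all but the Il10 library among those nearer to SP over all genes. An exon of Igfbp7 overlaps one of Polr2b on the other strand; without a stated strand setting reads of the overlap cannot be told apart.

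Csf1 (chr3:107741048-107760469, minus strand) went up more evenly. Its medians over 12 libraries were 0 CPM in NDLN and in NEG, 3.37 CPM in INT, 19 CPM in SP and 31.0 CPM in DP, and the SP (7.88 to 28.3) and DP (14.1 to 66.0) ranges overlapped. In DKO the DP libraries held 38.1, 31.4, 66.0 and 21.9 CPM and the NEG libraries 0, 0, 3.24 and 0.0427 CPM, a rise of 5.71 ± 1.51 (adjusted p = 0.00785). In Ebi3L the DP libraries held 50.9, 14.1 and 16.8 CPM against 0.191, 0 and 0.0336 CPM in NEG, a rise of 8.64 ± 1.10 (adjusted p = 3.92e-05). The ranges did not overlap in either genotype. The gene already rose at INT in Ebi3L, with 3.11, 4.91 and 7.50 CPM (6.37 ± 1.04, adjusted p = 0.0114), a call that was lost without replicate 2 (0.243) or 3 (0.163). Both of those INT libraries were nearer to SP than to INT over all genes. DP exceeded SP in 8 of the 9 matched pairs without yfp, with Ebi3L replicate 3 the exception (21.5 CPM in SP, 16.8 in DP), while the SP to DP step itself was 0.81 ± 1.22 in DKO (adjusted p = 0.762). Csf1r, which encodes the receptor of Csf1 and marks myeloid cells, was at most 0.0337 CPM in the DP libraries.

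Metrnl (chr11:121701544-121716306, plus strand) separated lymph node from tumour, and its change from NEG to DP was not called in DKO, Ebi3L or Il10. It was at 0 in 10 of 12 NDLN libraries and at most 1.85 CPM there, and its medians in NEG, INT, SP and DP were 20.7, 24.1, 30.2 and 33.0 CPM. The 4 NEG libraries of DKO held 17, 23.1, 32.4 and 18.3 CPM against 0, 0.148, 0 and 0 CPM in NDLN, a ratio of 616 (counting interval 227 to 3218, adjusted p = 3.1e-07). In Ebi3L the NEG libraries held 15, 23.3 and 24.4 CPM against 0, 1.85 and 0 CPM, a rise of 5.44 ± 1.10 (adjusted p = 0.0289; 0.181 without Ebi3L replicate 1, 0.162 without replicate 3 and 0.113 with no batch term). From NEG to DP it differed by 0.23 ± 0.43 in DKO (adjusted p = 0.7) and 1.06 ± 0.88 in Ebi3L (0.388, but 0.0489 with no filter). The ranges overlapped in DKO (DP at 15.3 to 34.8 CPM). In Ebi3L every DP library (30.5 to 41.8 CPM) lay above every NEG library. The NEG library at 0 was Il10 replicate 1, whose Pdcd1 level of 85.9 CPM was the highest of the NEG libraries.

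Rgs8 (chr1:153653025-153700323, plus strand), the G protein regulator, was near 0 before SP and highest in DP. It was at 0 in 11 of 12 NDLN and 11 of 12 NEG libraries, at a median of 0.0253 CPM in INT (range 0 to 12.5), of 10.6 CPM in SP (0.210 to 19.4) and of 32.6 CPM in DP (20.2 to 57.9). The DP range began above the top of the SP range over all 12 libraries of each, and also over the 9 of each without yfp (20.2 against 19.4 CPM). In DKO the DP libraries held 31.9, 33.1, 29.7 and 20.2 CPM and the SP libraries 7.99, 10.8, 1.10 and 0.210 CPM. The ranges did not overlap, but the step of 2.86 ± 1.20 missed the threshold (adjusted p = 0.153; limma on the deposited log2 values gave 0.0479). The same held in Ebi3L, with 57.9, 31.3 and 31.6 CPM against 19.4, 15 and 7.74 CPM (1.63 ± 0.71, adjusted p = 0.262). Against NEG, the DKO ratio was 1207 (counting interval 360 to 10751, adjusted p = 0.000329) and the Ebi3L level was at least 369-fold higher (adjusted p = 5.41e-06). In Ebi3L the switch fell between INT (0, 0.0506 and 0.0724 CPM) and SP, with a ratio of 342 (interval 112 to 1599, adjusted p = 0.000705, and 0.0552 without Ebi3L replicate 2). In Il10 the INT replicate 1 library held 12.5 CPM, within the range of SP, and replicate 2 held 0. An exon of Rgs8 overlaps the transcript Gm29529 on the other strand, so that reads of the overlap cannot be told apart.

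**Figure D2:**
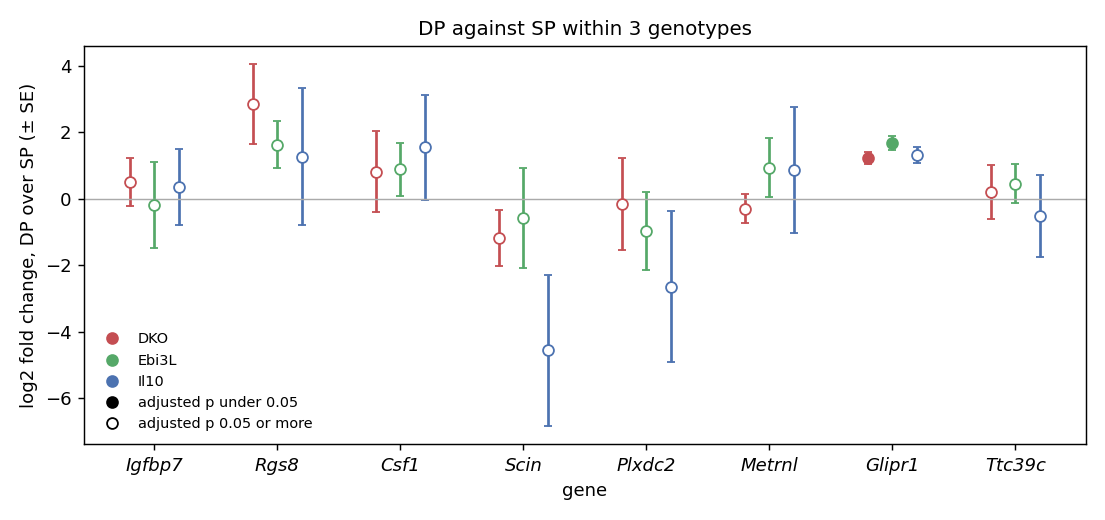
Log2 fold change (y axis, bars are the SE) of DP against SP for each of the 8 genes (x axis) in DKO, Ebi3L and Il10 mice. Filled markers passed an adjusted p of 0.05. Glipr1 is filled in DKO (1.22 ± 0.18) and Ebi3L (1.69 ± 0.21), and the estimates for Scin and Plxdc2 lie below 0 in all 3 genotypes.

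Scin (chr12:40059769-40134228, minus strand), the actin-severing protein, was highest in SP. It was at 0 in all 12 NDLN and in 9 of 12 NEG libraries, with a median of 0.228 CPM in INT (0 to 21.8), 41.2 CPM in SP (4.05 to 118) and 12.5 CPM in DP (0 to 124). SP exceeded DP in 8 of the 9 matched pairs without yfp, and Ebi3L replicate 3 was the exception. In DKO the SP libraries held 55.4, 118, 54.2 and 37.3 CPM and the INT libraries 1.03, 21.8, 0 and 0.456 CPM, a rise of 5.15 ± 1.07 (adjusted p = 0.0339). This call was lost without DKO replicate 1 (0.302) or 4 (0.2), with no batch term (0.292), with no filter (0.0787) and with the replicate block in place of batch (0.0541). The DP libraries of DKO held 22.6, 45.9, 17.3 and 22.7 CPM, at least 203-fold above NEG, where all were at 0 (adjusted p = 0.000175). Those of Ebi3L held 11.3, 10.4 and 124 CPM against 0, 1.45 and 0 CPM in NEG, a rise of 6.78 ± 1.97 (adjusted p = 0.031), which was lost when any of the 3 Ebi3L replicates was left out (0.0595 to 0.188) and with the replicate block (0.0618). The step from SP to DP, -1.19 ± 0.84 in DKO, did not pass (adjusted p = 0.45).

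In the yfp mice the DP libraries held 0.499, 0.349 and 2.54 CPM of Scin, below all 7 DKO and Ebi3L DP libraries, while the yfp SP libraries held 43.3, 12.9 and 9.08 CPM. The yfp libraries took part in the choice of the genes, so these levels are set side by side with no test. The 2 Il10 DP libraries, at 13.7 and 0 CPM, lay on either side of the yfp values.

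Plxdc2 (chr2:16356304-16755839, plus strand), the transmembrane protein, also peaked in SP. Its medians were 0 CPM in NEG, 6.44 CPM in INT (0 to 10.8), 22.5 CPM in SP (12.5 to 41.9) and 5.79 CPM in DP (2.25 to 38.1). Every SP library lay above every INT library, also among the 9 of each without yfp. Neither the INT to SP nor the SP to DP step was called for Plxdc2 in DKO, Ebi3L or Il10. In DKO the means were 24.4 CPM in SP and 20.8 CPM in DP. In 8 of the 9 matched pairs without yfp SP exceeded DP; in DKO replicate 3 the values were 22.2 CPM in SP and 38.1 in DP. In DKO, DP at 11.9, 31.1, 38.1 and 2.25 CPM was 4.48 ± 1.63 above NEG at 0, 0.0425, 0.228 and 2.99 CPM (adjusted p = 0.0364). The ranges overlapped through DKO replicate 4, and leaving out DKO replicate 1, 2 or 3 ended the call (adjusted p from 0.0865 to 0.139), as did no filter (0.0672) and the replicate block (0.0715). In Ebi3L, DP at 6.25, 2.76 and 19.1 CPM was 7.16 ± 1.59 above NEG at 0, 0.167 and 0 CPM (adjusted p = 0.0026). INT at 9.40, 9.17 and 2.14 CPM was 6.54 ± 1.56 above NEG (adjusted p = 0.0448), a call lost when any Ebi3L replicate was left out (0.0815 to 0.29), with no batch term (0.164), by limma (0.0812) and with the replicate block (0.0559). Low levels were also present in the lymph node, up to 2.60 CPM.

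Glipr1 (chr10:111985448-112002631, minus strand), the CAP family member, was expressed everywhere and stepped up in DP. Its medians were 52.0 CPM in NDLN, 48.5 in NEG, 61.5 in INT, 84.2 in SP and 175 in DP, where the lowest library (141) lay below the highest SP library (163, yfp replicate 3). The DKO DP libraries were close to each other, at 159, 151, 152 and 156 CPM, against 85.3, 74.3, 55.2 and 60.0 CPM in SP. This was a rise of 1.22 ± 0.18 (adjusted p = 0.000327), called under every alternative tried. In Ebi3L, DP held 271, 401 and 273 CPM against 92.2, 131 and 95.8 CPM in SP, a rise of 1.69 ± 0.21 (adjusted p = 0.000321, and 0.0558 without Ebi3L replicate 2, 0.127 with no batch term). In Il10, DP held 183 and 141 CPM against 66.1 and 65.2 CPM, a difference of 1.32 ± 0.24 that did not pass (adjusted p = 0.274; DESeq2 0.000603). From NEG to DP it rose by 1.92 ± 0.18 in DKO (adjusted p = 2.99e-07), 2.20 ± 0.22 in Ebi3L (1.68e-06) and 1.43 ± 0.24 in Il10 (0.0154). In DP all 3 Ebi3L libraries lay above all 4 DKO libraries, by 0.62 ± 0.20 on the log2 scale, with an adjusted p of 1. Ebi3L replicates 2 and 3 were of batch 3, which held no DKO library, so genotype and batch cannot be fully told apart here. An exon of Glipr1 overlaps one of Krr1 on the other strand, and reads of the overlap cannot be told apart.

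Ttc39c, the tetratricopeptide repeat protein, was higher in DP than in NEG in both DKO and Ebi3L. Its medians were 2.64 CPM in NDLN, 6.04 in NEG (1.96 to 35.9), 43.1 in INT (13.7 to 74.0), 66.0 in SP (30.1 to 106) and 62.4 in DP (32.5 to 99.1). DP exceeded SP in 4 of the 9 matched pairs without yfp. From NEG to INT it was higher in 9 of those 9 pairs, but the step was called in no genotype by edgeR: 1.00 ± 0.83 in DKO (adjusted p = 0.743), 2.10 ± 0.60 in Ebi3L (0.103; DESeq2 0.00838) and 3.66 ± 1.40 in Il10 (0.673). In DKO the NEG libraries held 5.62, 2.80, 15.6 and 35.9 CPM against 0, 2.41, 0 and 0.527 CPM in NDLN, a rise of 4.44 ± 1.06 (adjusted p = 0.0211), lost without DKO replicate 1, 3 or 4 (0.103 to 0.144). From NEG to DP, at 85.8, 99.1, 75.4 and 67.8 CPM, it rose by 2.45 ± 0.88 in DKO (adjusted p = 0.0342), lost without replicate 1, 2 or 3 (0.0503 to 0.111) and with no filter (0.0625). In Ebi3L it went from 5.73, 6.46 and 8.83 CPM to 32.9, 32.5 and 98.1 CPM, a rise of 2.98 ± 0.62 (adjusted p = 0.00189).

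Between the DKO, Il10 and Ebi3L genotypes within a population, none of the 8 genes was called by edgeR in any of the 15 comparisons, where 0% or 0.00811% of the genes tested were called. In each NDLN and NEG comparison only 5 of the 8 passed the filter on low counts and were tested. All 8 were tested in INT, SP and DP. Of the 120 pairings of a gene with a comparison, which include those left untested by the filter, 22 had an unadjusted p under 0.05 by edgeR. This is a larger share than the 4.17% of the tests of all genes. DESeq2 made 9 calls in 7 of the comparisons. The share of all genes that DESeq2 called is not given, so these calls cannot be set against the edgeR percentages. In SP between DKO and Il10, edgeR called 0 of all genes and the alternative with the most calls 165. Those of DESeq2 included lower Igfbp7 and Scin in SP of Il10 mice than of DKO mice (adjusted p = 0.00222 and 0.000466). The SP libraries of Il10 mice held 69.5 and 12.3 CPM of Igfbp7 and 39.5 and 4.05 CPM of Scin. The change from NEG to DP was not called as different between DKO and Ebi3L or between DKO and Il10 mice for any of the 8 genes (0% of 13788 genes called in each; an unadjusted p under 0.05 was found for none of the 8 and for 5.16% and 5.91% of all genes, and DESeq2 called none of the 8).

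Matched SP and DP libraries were compared for their levels over the 9 pairs without yfp, as log2(CPM + 1). Pearson's r was 0.885 for Glipr1, 0.907 for Scin, 0.762 for Rgs8 and 0.784 for Igfbp7, with an adjusted exact permutation p over the 8 genes (two-sided) of 0.0174, 0.0192, 0.0192 and 0.0251. Spearman's rho was 0.783, 0.750, 0.833 and 0.567, and none of these passed after adjustment (exact permutation p adjusted 0.068, 0.068, 0.0661 and 0.241). Without the 2 pairs farthest from the median in SP, r was 0.765, 0.765, 0.689 and 0.181, so that the relation of Igfbp7 rests on those pairs. These were Ebi3L replicate 3 (269 CPM in SP and 265 in DP) and Il10 replicate 2 (12.3 and 18.1 CPM). The correlation was 0.0268 for Csf1, 0.267 for Plxdc2, -0.24 for Metrnl and 0.0629 for Ttc39c, with adjusted exact permutation p of 0.704 or more. No batch held 6 pairs without yfp, so no value within a batch is given. These pairs mix genotypes and batches, and the comparison was chosen after the data were seen. The correlation was not computed for other genes, so whether it is particular to these genes was not tested. Over all genes passing the filter, residuals of same-number libraries had r above 0.1 in 17 of 40 DKO and 17 of 30 Ebi3L pairs. Of the other pairs, 0 of 120 and 0 of 60 did.

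**Figure D3:**
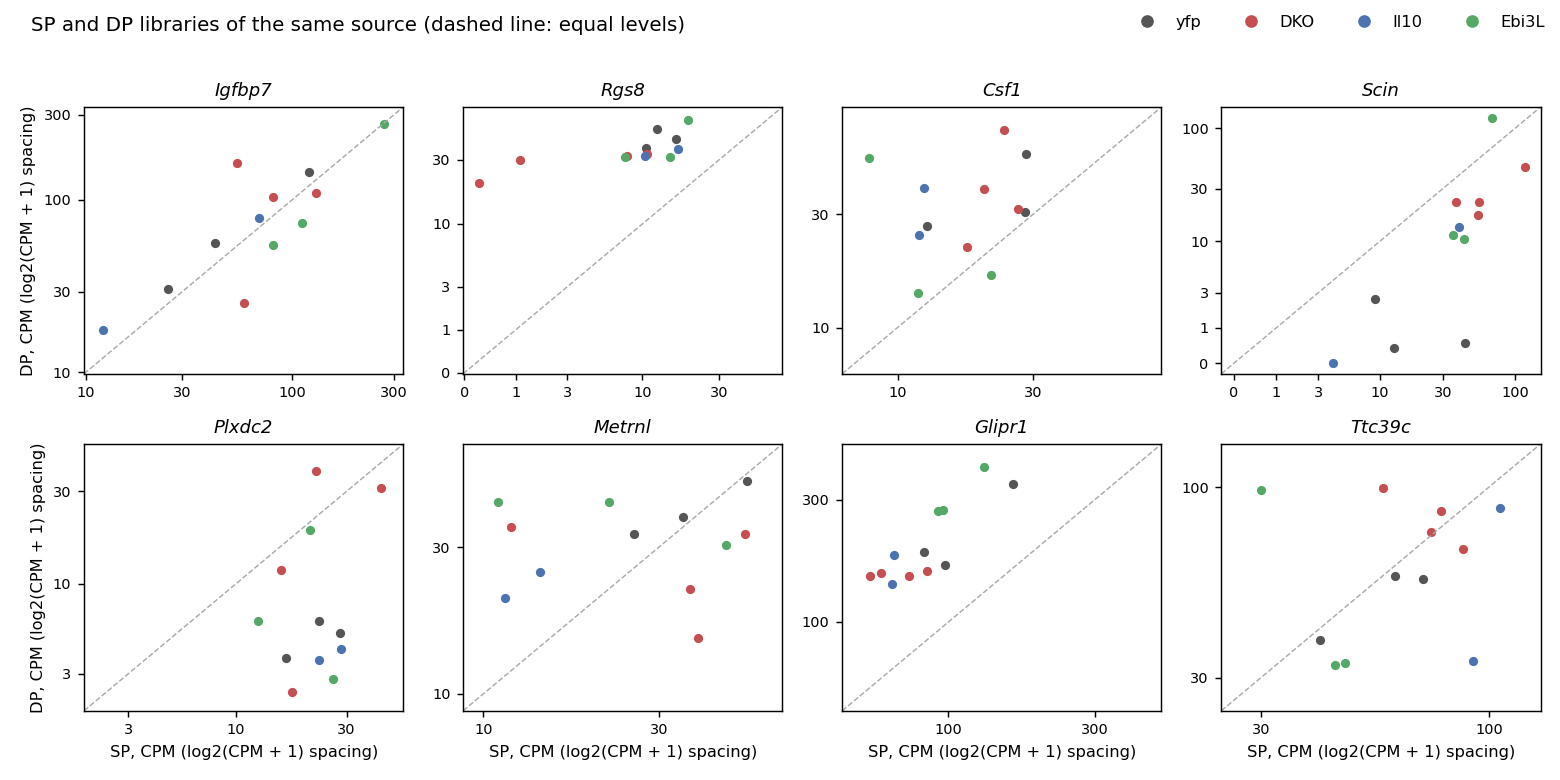
Level in DP (y axis) against level in SP (x axis), both as log2(CPM + 1), for each of the 8 genes in the 12 matched pairs of libraries, coloured by genotype; the line marks equal levels. All 9 points without yfp lie above the line for Rgs8 and Glipr1, and 8 of them lie below it for Scin and for Plxdc2; the yfp points took part in the choice of the genes.

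The Treg series sets tumour against lymph node in cells sorted by cytokine and not by PD-1. Tumour Tregs also carried the sort receptors, with Pdcd1 at 690 ± 34.7 CPM and Havcr2 at 101 ± 18.3 CPM in TIL DN Tregs (SD, n = 3). From lymph node to tumour, 4 of the 8 genes rose in DN Tregs, Csf1, Metrnl, Glipr1 and Ttc39c, where 12.9% of 12907 genes rose, and each of these calls was kept under every alternative tried. In Ebi3 Tregs Csf1, Metrnl, Glipr1 and Ttc39c rose as well (6.24% of genes), and in IL10 Tregs 2 rose, Metrnl and Glipr1 (5.56%). The numbers fell to 2 and 1 without the batch block. In Ebi3 Tregs, leaving out replicate 1 or replicate 3 ended the calls of Csf1, Metrnl and Ttc39c, and leaving out replicate 2 that of Ttc39c. Leaving out replicate 1 or replicate 3 ended both calls in IL10 Tregs.

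**Figure D4:**
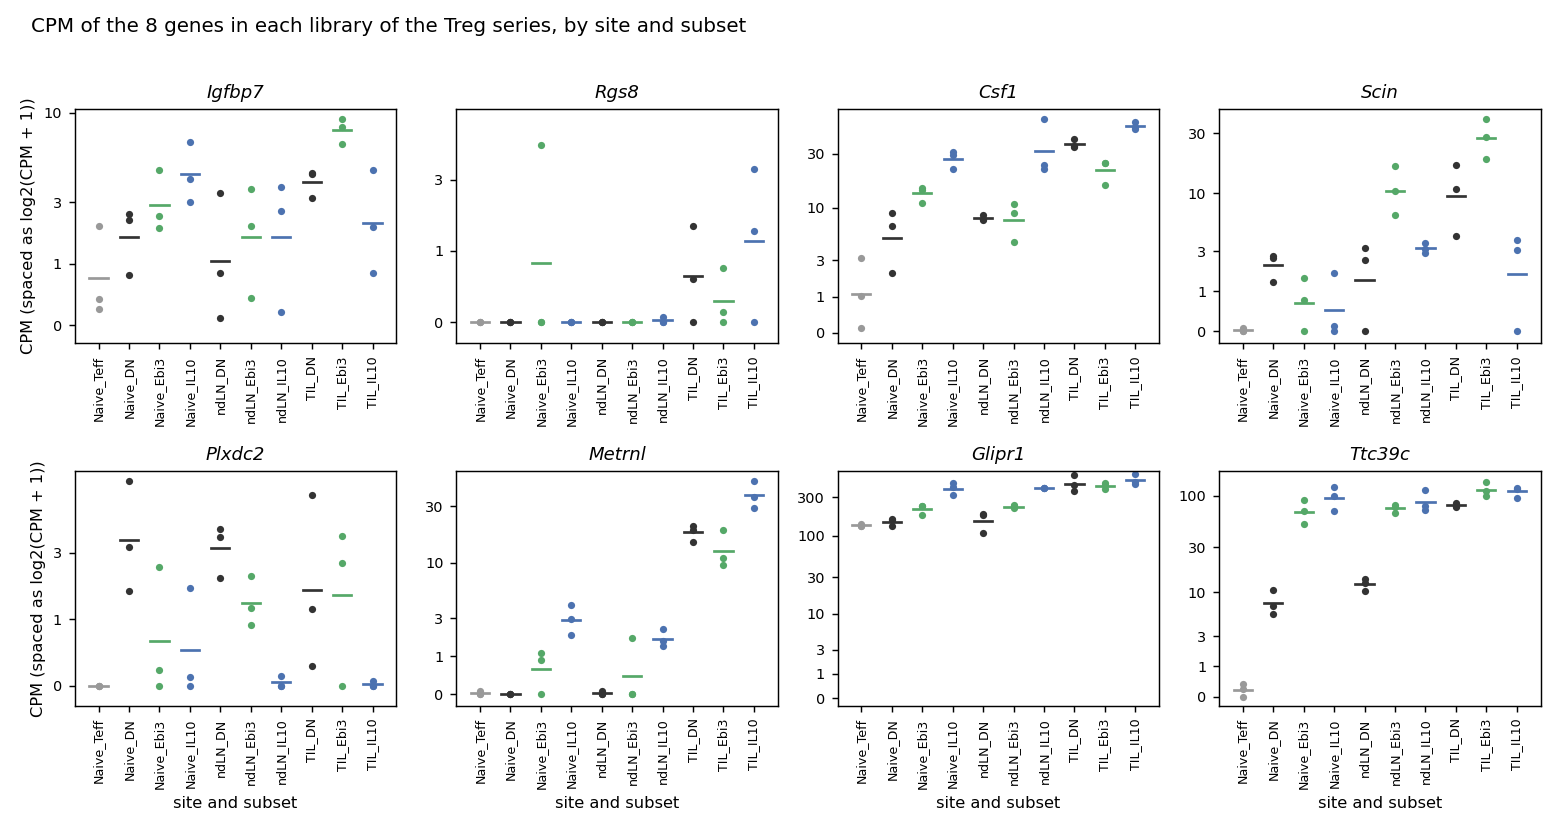
Level of each of the 8 genes in the 30 libraries of the Treg series, by group (x axis), as CPM spaced as log2(CPM + 1); points are libraries and short lines are means on that scale. Glipr1 is at 108 CPM or more in every library, Metrnl is at 9.49 to 47.5 CPM in tumour and at most 4.07 CPM elsewhere, and Rgs8 is at most 4.63 CPM.

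Of the secreted factors, Metrnl marked the tumour in Tregs as it did in CD8 cells. It was at 20.5, 19.1 and 15.2 CPM in TIL DN against 0, 0 and 0.0564 CPM in ndLN DN, a ratio of 973 (counting interval 144 to 31739, adjusted p = 2.7e-05). TIL Ebi3 libraries held 19, 10.9 and 9.49 CPM against 0, 1.80 and 0 CPM (4.94 ± 1.08, adjusted p = 0.00264), and TIL IL10 libraries 47.5, 35.8 and 29.0 CPM against 1.65, 2.27 and 1.40 CPM (4.59 ± 1.00, 0.00302). Every tumour library lay above every lymph node and naive library. Csf1 was at 34.2, 35.0 and 39.9 CPM in TIL DN against 8.54, 7.81 and 7.78 CPM in ndLN DN, a rise of 2.31 ± 0.52 (adjusted p = 0.00156). In TIL Ebi3 it was at 25.0, 16.2 and 25.0 CPM against 10.8, 8.89 and 4.65 CPM (1.62 ± 0.51, adjusted p = 0.0395; 0.0751 without the batch block, 0.0621 with library totals, 0.051 with no filter and 0.113 by limma). IL10 Tregs of the tumour held 49.0, 56.3 and 50.8 CPM, and those of the lymph node, at 24, 59.4 and 22.0 CPM, reached the same range. Igfbp7 stayed at 0.0877 to 9.29 CPM in all 30 libraries.

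Glipr1 rose from 184, 108 and 181 CPM in ndLN DN to 420, 356 and 566 CPM in TIL DN (1.63 ± 0.14, adjusted p = 2.11e-09). In Ebi3 Tregs it rose from 221, 233 and 238 CPM to 446, 377 and 429 CPM (1.01 ± 0.14, 7.25e-06). In IL10 Tregs it went from 388, 393 and 394 CPM to 440, 466 and 585 CPM (0.50 ± 0.14, 0.0187; 0.181 without the batch block, 0.0974 with library totals and 0.091 by limma). The difference between tumour and lymph node was smaller in IL10 than in DN Tregs, at a log2 difference of -1.13 ± 0.20 (adjusted p = 0.000744, and 0.0531 without the batch block; 2.5% of genes were called lower in this difference). Ttc39c rose from 10.4, 12.5 and 13.9 CPM to 78.6, 85.4 and 76.8 CPM in DN Tregs (2.82 ± 0.24, adjusted p = 1.13e-09), and from 80.7, 77.4 and 67.2 CPM to 111, 139 and 99.4 CPM in Ebi3 Tregs (0.78 ± 0.22, 0.0184; 0.0759 without the batch block, 0.065 with library totals and 0.352 by limma). In IL10 Tregs it was at 71.9, 115 and 79.2 CPM in lymph node and 121, 117 and 95.3 CPM in tumour. Its tumour difference was smaller in IL10 (log2 -2.31 ± 0.32, adjusted p = 3.69e-05) and in Ebi3 Tregs (log2 -2.04 ± 0.32, 0.000557, and 0.0778 by limma; 0.968% of genes called lower) than in DN Tregs. No gene of the 8 was called as different between IL10 and Ebi3 Tregs in this respect (0.178% of genes called; 1 of the 8 and 5.86% of all genes had an unadjusted p under 0.05, and neither DESeq2 nor limma called any).

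Outside the tumour, the cytokine-expressing Tregs already differed from DN Tregs in these genes. In the lymph node, IL10 Tregs were higher than DN Tregs in Csf1 (2.16 ± 0.52, adjusted p = 0.00425), Metrnl (0.00593), Glipr1 (1.34 ± 0.14, 9.41e-08) and Ttc39c (2.83 ± 0.24, 2.32e-09), and lower in Plxdc2, 4 higher and 1 lower of 8 where 8.81% of all genes were higher and 7.37% lower. The Plxdc2 levels were 3.71, 4.12 and 2.09 CPM in DN and 0, 0 and 0.107 CPM in IL10 Tregs (adjusted p = 0.0421; 0.207 and 0.267 without replicate 1 or 2, 0.0701 without the batch block). The Metrnl call was lost without replicate 1 (0.0547) or 3 (0.0639). Ebi3 Tregs were higher than DN Tregs in Ttc39c (2.55 ± 0.24, adjusted p = 5.63e-08) and Glipr1 (0.52 ± 0.14, 0.013; 0.182 without the batch block, 0.346 without replicate 2, 0.0523 without replicate 3), with 6.96% of genes called higher. IL10 Tregs exceeded Ebi3 Tregs in Csf1 (2.23 ± 0.52, adjusted p = 0.00844; 0.0635 without replicate 2, 0.168 without 3 and 0.0563 by limma) and Glipr1 (0.83 ± 0.14, 0.000316), with 3.13% of genes called higher.

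Naive mice, which carry no tumour, showed the same order for Ttc39c and Glipr1. Ttc39c was at 7.08, 10.6 and 5.63 CPM in naive DN Tregs, 51.4, 90.2 and 70.2 CPM in Ebi3 Tregs (3.12 ± 0.24, adjusted p = 2.52e-09) and 123, 98.8 and 70.8 CPM in IL10 Tregs (3.68 ± 0.25, 3.62e-11). Glipr1 was at 156, 131 and 159 CPM in DN, 233, 180 and 234 CPM in Ebi3 (0.46 ± 0.14, 0.0289; 0.211 without the batch block and 0.17 and 0.155 without replicate 1 or 3) and 405, 316 and 444 CPM in IL10 Tregs (1.38 ± 0.14, 5.27e-08). Csf1, at 21.9, 29.4 and 31.0 CPM in IL10 against 6.70, 2.13 and 8.86 CPM in DN Tregs, rose by 2.23 ± 0.52 (adjusted p = 0.00304), and Metrnl was at least 13.8-fold higher (0.000852). In all, 4 of 8 genes were called for IL10 against DN (9.98% of genes called higher) and 3 for Ebi3 against DN (7.4%), the third being Metrnl at 1.13, 0 and 0.883 CPM, whose call was lost without replicate 1 (0.193) or 3 (0.221).

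Against naive Teff cells, naive DN Tregs were higher in 4 of the 8 genes (8.79% of all genes). Ttc39c, at 0.205, 0 and 0.339 CPM in Teff, rose by 5.18 ± 0.40 (adjusted p = 2.24e-10). Csf1 rose by 2.06 ± 0.56 (0.0147; 0.305 without replicate 3), Scin was higher by a ratio of 97.6 (counting interval 15 to 3416, adjusted p = 0.0277; 0.2 and 0.176 without replicate 2 or 3) and Plxdc2 was at least 17.2-fold higher (0.0109; 0.0587 to 0.105 when any replicate was left out). Between lymph node and naive DN Tregs edgeR called none of the 8 genes (0.0852% of genes called; 1 of the 8 and 7.43% of all genes had an unadjusted p under 0.05, and DESeq2 and limma called none).

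Within the tumour, none of the 8 genes was called by edgeR between the Treg subsets. For IL10 against DN 0.837% of all genes were called, for Ebi3 against DN 0.713% and for IL10 against Ebi3 2.84%. An unadjusted p under 0.05 was found for 2, 1 and 4 of the 8 and for 9.31%, 9.61% and 14.7% of all genes. DESeq2 called 1, 0 and 0 of the 8, and limma none. Scin was at 18.8, 28.1 and 38.5 CPM in TIL Ebi3, 10.8, 17 and 4.26 CPM in TIL DN and 0, 3.91 and 3.13 CPM in TIL IL10 Tregs. IL10 and Ebi3 Tregs did not overlap for Scin (log2 difference -3.73 ± 1.28, adjusted p = 0.13; 0.0384 without replicate 1). Plxdc2, at 6.28, 0.223 and 1.23 CPM in TIL DN and 0.05, 0 and 0 CPM in TIL IL10 Tregs, missed the threshold as well (adjusted p = 0.231; DESeq2 0.0443).

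Levels of different genes can be set side by side only per length, here as mean CPM per kilobase of annotated exon. On this scale DKO DP cells held 100.05 of Glipr1, 82.6 of Igfbp7, 16.6 of Metrnl, 11.3 of Ttc39c, 9.05 of Scin, 7.46 of Csf1, 3.00 of Plxdc2 and 2.98 of Rgs8. TIL DN Tregs held 290 of Glipr1, 11.5 of Metrnl, 11.1 of Ttc39c, 6.88 of Csf1, 3.57 of Scin, 3.38 of Igfbp7, 0.371 of Plxdc2 and 0.0714 of Rgs8. Glipr1 led in both. The series were prepared with different kits, so the values of the 2 cell types are a description.

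Among the 11393 genes with a mean of 1 CPM or more, those whose pattern over the 30 group means of log2(CPM + 1) was most like that of each gene were as follows, by Pearson r, as a description. Rgs8 was nearest to Synpo2 (0.965), Atf7ip2 (0.964) and Slc6a12 (0.960), and Igfbp7 to Plscr4 (0.945), Cd70 (0.940) and Serpine2 (0.939). Csf1 was nearest to Rgs16 (0.953), Tpm4 (0.947) and Tnfrsf9 (0.939), and Metrnl to Lilrb4 (0.953), Ccl4 (0.925) and Cables1 (0.921). Glipr1 was nearest to Plxnd1 (0.946), Kdelr2 (0.943) and Ppib (0.942), and Ttc39c to Fam129a (0.949), Osbpl3 (0.940) and Stx11 (0.940). Scin was nearest to Bace2 (0.903), Wisp1 (0.845) and Tg (0.843), and Plxdc2 to 1700019D03Rik (0.882), Tnfsf4 (0.873) and Kcnk10 (0.873). Among the 8 genes themselves, r was highest between Igfbp7 and Rgs8 (0.888) and between Csf1 and Ttc39c (0.857), and -0.06 between Glipr1 and Plxdc2. The group means share libraries, depth and the sort, so they are not independent points.

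The relatives of these genes, listed by family, did not all follow them from NEG to DP in DKO mice, where 21.4% of all genes rose and 20% fell. Of the other insulin-like growth factor binding proteins, 7 in the list, only Igfbp4 passed the filter on low counts, and it fell, from 116 ± 31.6 CPM (SD, n = 4) to 0 in all 4 DP libraries. Of 11 tested RGS genes, 2 rose and 3 fell: Rgs16 by 8.97 ± 1.32 and Rgs1 by 2.02 ± 0.33 upward, Rgs10 by 2.85 ± 0.23 and Rgs11 by 2.04 ± 0.42 downward (log2 -2.85 and -2.04). Of 4 tested colony-stimulating factor genes and receptors 2 rose, Csf2, the growth factor GM-CSF (8.81 ± 1.12), and Il3, interleukin 3 (60.7 ± 91.4 CPM in DP, adjusted p = 0.0113). In the gelsolin family 2 of 6 rose, Capg by 3.69 ± 0.38 and Flii by 0.36 ± 0.12. Among 5 tested genes listed for the remaining members, Metrn (1.19 ± 0.45) rose and Glipr2 fell (log2 -1.02 ± 0.16). Kit, a receptor tyrosine kinase that is no member of these families and was listed as a reported receptor of Metrnl, rose too (3.87 ± 1.30). In Ebi3L mice (17.6% of genes rose, 15.7% fell) the counts were 0 higher and 1 lower of 2, 2 and 2 of 10, 1 and 0 of 2, 1 and 1 of 6, and 0 and 1 of 6, in the same order.

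The wider programme also moved from NEG to DP in DKO and Ebi3L mice, where 7 of the 8 genes, all but Metrnl, rose. Of 22 exhaustion genes 14 rose and none fell in DKO, among them Tnfrsf9 (5.02 ± 0.37), Lag3 (4.77 ± 0.89), Prdm1 (3.80 ± 0.96) and Ctla4 (3.27 ± 0.65), and 14 rose and 1 fell in Ebi3L. Of 12 stem-like genes 11 fell in each genotype, with Tcf7 at log2 -5.46 ± 0.47 in DKO, while Xcl1, a chemokine, rose (3.63 ± 0.71). All 10 proliferation genes rose in each. From lymph node to tumour in DN Tregs (12.9% of all genes rose, 10.5% fell), 15 of 22 exhaustion genes rose, 10 of 12 stem-like genes fell and 1 rose, and 2 of 10 proliferation genes rose.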

How the data were processed

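RNA of sorted T cells was made into cDNA with SMART-Seq v3 (CD8) or v4 (Tregs) and Nextera XT libraries, per the labels' protocols. Per the submitters' processing notes the authors used STAR, featureCounts of Subread, the mm10 build and limma; for their versions, the annotation and the strand setting, nothing is given in the sources used here. The deposited counts are whole numbers per gene, not normalized, for 23420 genes in 90 libraries, all of which had a group. The authors also deposited normalized and filtered log2 values for the CD8 and for the Treg libraries, used here only for an alternative test with limma.

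Levels are CPM of library totals. Counts were tested with edgeR 4.0.16 in R 4.3.3 (TMM, its filter on low counts with a minimum of 10, robust quasi-likelihood) over all genes, with Benjamini-Hochberg adjustment and a threshold of 0.05. Each CD8 genotype was fitted with batch as a term, each population over its 12 libraries with batch, the genotype differences of DP against NEG over 24 libraries with genotype and set as a block, and the Treg series over its 30 libraries, blocked on batch. In the Treg series the labels give each replicate number a batch of its own, which pairs the libraries; the residuals of 135 same-batch pairs had a median r of 0.07 (48 above 0.1), those of 270 other pairs -0.06. The alternatives were DESeq2 1.42.0, library totals, no filter, the block or batch term added or dropped, limma 3.58.1 on the deposited values, and leaving out each replicate. Percentages of all genes are those of the reported edgeR fits, and no such share is given for DESeq2 or limma. The fits were also run on simulated data, with changes set only in genes of counts well above the floor and with a fixed dispersion. Genes near 0 in a group were not simulated as changed, so that run does not cover them. Permutation tests were exact, over 362880 orders. Of 95 pairs of replicates, 0 differed by as little as sampling noise. Intervals and floors cover counting error only, since reads without molecular identifiers are not independent molecules.

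The genes and all lists were chosen with earlier results of these data known. The genes named are the 8, the sort receptors, markers beside a result, up to 4 of a list with the largest change in DKO DP against NEG, and the 3 genes nearest to each of the 8. Adgre1 and Hbb-bs were found under their older symbols. Genome positions are from GENCODE M21 on GRCm38, the same assembly as mm10. The lists were sort receptors, exhaustion, stem-like and proliferation genes, 5 lists of relatives, and markers of CD8, CD4 and Treg, myeloid, stromal and endothelial, pigment, B, NK, dendritic and erythroid cells.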

Additional observations from a re-analysis of the deposited data

Results flagged for a closer look

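In 8 of the 40 sets of 4 DKO libraries checked (8 genes, 5 populations), the highest library stood apart from the other 3 by more than Dixon's 95% criterion. The criterion assumes normally distributed values. Where the other 3 libraries are at 0 it flags any library above 0, so no chance rate is set beside these flags. In 5 of the 8 the library that stood apart rests on a group otherwise at or near 0. In NDLN, Igfbp7 was at 0.0520 CPM in DKO replicate 1 and Metrnl at 0.148 CPM in replicate 2, with the others at 0. In NEG, Rgs8 was at 0.0952 CPM in replicate 1 (others at 0), Csf1 at 3.24 CPM in replicate 3 (next 0.0427) and Plxdc2 at 2.99 CPM in replicate 4 (next 0.228). In INT, replicate 2 was at 21.8 CPM of Scin (next 1.03) and 28.6 CPM of Metrnl (next 16.2), and replicate 4 at 67.4 CPM of Ttc39c (next 19.3). The INT library of DKO replicate 2 is among those nearer to SP over all genes.

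The change from lymph node to tumour differed between Treg subsets, by a test of the difference itself, for Glipr1 (log2 -1.13, IL10 less than DN) and for Ttc39c (log2 -2.31 for IL10 and -2.04 for Ebi3, each less than DN). For both genes the IL10 Tregs of the lymph node were already near the tumour level, Glipr1 at 388 to 394 CPM and Ttc39c at 71.9 to 115 CPM. Glipr1 was not called for Ebi3 against DN (-0.62 ± 0.20, adjusted p = 0.125).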

How the results depend on the processing

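Over 63 comparisons, 59 calls of one of the 8 genes were made and 31 were kept under every alternative run. No call reversed its direction. Of 604 recomputed counts of called genes, 527 stayed within 1.5 times of the value reported. That tally takes a count of 0 that stayed 0 as unchanged, and only 21 of the 63 comparisons had any of the 8 genes called. The counts that moved follow, with the reported count, then the lowest and highest with 1 replicate left out. In DKO they were NEG against NDLN 2 (1 to 2), SP against INT 2 (0 to 3; 1 with no filter and 1 with no batch term), DP against SP 1 (2 by limma) and INT against NEG 0 (2 by DESeq2). In Ebi3L they were NEG against NDLN 1 (0 to 1; 4 with no filter, 0 with no batch term), INT against NEG 2 (0 to 1; 4 by DESeq2, 5 with no filter, 1 with no batch term, 1 by limma and 1 with the replicate block), SP against INT 1 (0 to 1; 3 with no filter) and DP against SP 1 (0 to 1; 0 with no batch term). In the fits within Il10, where no replicate could be left out for want of residual degrees of freedom, DESeq2 called 1 from NDLN to NEG, 1 from NEG to INT, 1 from SP to DP and 5 from NEG to DP (limma 4; reported 0, 0, 0 and 2). Of the genotype comparisons, all 0 by edgeR (those with yfp, which took part in the choice, are listed here only), DESeq2 called 1 in NDLN (DKO and Ebi3L against Il10, Ebi3L against yfp), in INT (DKO against Ebi3L and yfp, Il10 against Ebi3L and yfp) and in DP (DKO against Il10 and yfp), and 2 in SP (DKO and Ebi3L against Il10). With no filter, 2 were called in INT (DKO and Ebi3L against Il10 and yfp), 1 in INT and in SP for Il10 against yfp, 3 in SP for DKO against Il10, and 2 in SP for Ebi3L against Il10 and yfp. Without Il10 replicate 2, which leaves 1 Il10 library a population (at 0 of Metrnl in NEG) that is assumed to vary like the other genotypes, Metrnl was called in NEG for Il10 against DKO, Ebi3L and yfp and in the DP to NEG difference of DKO and Il10 (0 to 1 each), as 1014, 695, 769 and 773 genes were. In the Treg series the counts were tumour against lymph node 2 (0 to 2) for IL10 and 4 (1 to 3) for Ebi3, which fell to 1 and 2 with library totals, with no replicate block and by limma; tumour IL10 against Ebi3 0 (0 to 1) and against DN 0 (1 by DESeq2); lymph node IL10 against DN 5 (3 to 4), Ebi3 against DN 2 (1 to 2; 1 with no replicate block) and IL10 against Ebi3 2 (1 to 2); naive Ebi3 against DN 3 (1 to 3) and DN against Teff 4 (1 to 3); and the difference of tumour against lymph node 2 for IL10 against DN (1 with no replicate block) and 1 for Ebi3 against DN (0 by limma). The cause of each was not tested. The CD8 labels do not say what a set number shares, and not every same-number pair of residuals exceeded r = 0.1: 17 of 40 did in DKO (median 0.08), 17 of 30 in Ebi3L (0.11) and 24 of 30 in yfp (0.18), against 0 of 120, 60 and 60 other pairs, a hint from the data that libraries of a set deviate together. The replicate block in place of batch ended 4 calls, of Scin in DKO SP against INT and Ebi3L DP against NEG, and of Plxdc2 in DKO DP against NEG and Ebi3L INT against NEG (adjusted p 0.0541 to 0.0715), and added Csf1 in DKO SP against INT (0.0424). TMM moved group levels by 0.915 to 1.19 times, 8 of 240 by over 1 SD.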
